A study of Homo sapiens with 8 samples.

Results

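The regions described here are places on the genome where the fusion protein ETO2-GLIS2 was found and AML1-ETO was not. They were chosen by measured values. A region is a peak of the ETO2-GLIS2 list at 48 h on chromosomes 1 to 22 with a −log10 q of at least 5, and it shares not a single base with any peak of the AML1-ETO lists at 12 h or 48 h. The q-value is the false discovery rate that the peak caller gives to a peak. Of 17503 ETO2-GLIS2 peaks that passed the threshold, 652 (3.73%) had no AML1-ETO peak. The other 16851 overlapped one and are called overlapping peaks below. Of the 652 regions, 181 also had an ETO2-GLIS2 peak at 12 h and 471 had none.

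The data are ChIP-seq peak lists, in which a peak is a stretch of DNA recovered more often by an antibody than in the input chromatin. U937, a human monocytic cell line, carried either AML1-ETO (line #4) or ETO2-GLIS2 (line #14) with an HA tag, and both lines were treated with doxycycline at 5 μg/ml to induce the protein. Chromatin was precipitated with anti-HA beads after 12 h or 48 h, and the series holds 4 ChIP libraries and 4 input libraries, 1 for each protein and time. Each protein was studied in 1 stable line and every group is 1 library, so no difference between proteins or times has a replicate check, and differences between the proteins cannot be told apart from differences between the lines. AML1-ETO gave longer lists (70833 peaks after 12 h, 105769 after 48 h) than ETO2-GLIS2 (28325 and 30096), and the read depth of the libraries was not used here. Shares are given with exact 95% Clopper-Pearson intervals, which cover counting error only, because peaks of 1 library are not replicates.

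Both fusion proteins are found in acute myeloid leukaemia. They keep most of a member of the ETO family of co-repressor proteins, which do not bind DNA themselves but join transcription factors such as E proteins to histone deacetylases. AML1-ETO takes its DNA-binding part, the Runt domain, from RUNX1, whereas ETO2-GLIS2 takes zinc fingers from GLIS2, a relative of the GLI factors of Hedgehog signalling that recognises a G-rich sequence. The question put to these regions was where they lie, whether they were also present at 12 h, and which of the sequences read by either DNA-binding part they hold.

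The strongest of these regions are shown first, because their sequences hold words that the later comparison of summits and flanks turns on. Each line gives 101 bases of GRCh37 (the assembly on which hg19 is built), plus strand, centred on the summit, which is the base with the highest signal. Capitals mark matches, on either strand, to the C-rich word CCCCNGC (N is any base), to the related word CAGGGGG and to GAGGAAG, a word that resembles ETS factor sites. The first 8 are regions of the 10 with the highest fold enrichment, for which the sequence is not part of a UTR. The region upstream of VWF and, for contrast, a weak region in GLIS3 follow.
CETN4P promoter, chr4:123653566-123653666: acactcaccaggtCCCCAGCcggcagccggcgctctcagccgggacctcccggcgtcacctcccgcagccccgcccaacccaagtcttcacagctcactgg
SCD5 intron 1, chr4:83701928-83702028: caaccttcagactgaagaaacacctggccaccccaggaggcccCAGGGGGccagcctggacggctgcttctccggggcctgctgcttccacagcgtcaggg
CREBRF promoter, chr5:172484193-172484293: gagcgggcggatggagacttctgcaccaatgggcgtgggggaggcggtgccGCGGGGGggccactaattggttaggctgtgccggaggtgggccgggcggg
BCL2 intron 2, chr18:60809237-60809337: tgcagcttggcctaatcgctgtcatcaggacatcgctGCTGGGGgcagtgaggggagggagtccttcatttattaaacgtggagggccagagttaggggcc
DDX31 intron 19, chr9:135472632-135472732: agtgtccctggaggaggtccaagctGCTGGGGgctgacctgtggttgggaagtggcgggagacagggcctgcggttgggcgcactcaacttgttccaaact
9375 bp from the CCL22 start, chr16:57383270-57383370: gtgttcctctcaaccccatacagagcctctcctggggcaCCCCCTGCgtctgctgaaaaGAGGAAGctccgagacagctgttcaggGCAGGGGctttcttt
DOCK9 intron 1, chr13:99626551-99626651: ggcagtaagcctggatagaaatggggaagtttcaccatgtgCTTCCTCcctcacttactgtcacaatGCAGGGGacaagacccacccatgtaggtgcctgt
ENSG00000231557 intron 2, chr2:199778596-199778696: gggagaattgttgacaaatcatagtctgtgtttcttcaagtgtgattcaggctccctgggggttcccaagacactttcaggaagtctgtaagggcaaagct
upstream of VWF, chr12:6250273-6250373: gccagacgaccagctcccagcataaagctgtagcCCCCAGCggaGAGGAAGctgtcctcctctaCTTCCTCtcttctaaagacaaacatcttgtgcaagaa
GLIS3 intron 2, chr9:4281360-4281460: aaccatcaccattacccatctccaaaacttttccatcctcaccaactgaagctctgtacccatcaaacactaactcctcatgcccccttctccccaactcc
Of the 10 regions with the highest fold enrichment, 7 held CCCCNGC inside these 101 bases. In SCD5 the word CAGGGGG stood near the summit, whereas the window of ENSG00000231557, although strong, held none of the marked words, and neither did that of GLIS3.

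A further pair of regions is shown because they were the ones whose summits lay within 100 bp of a full match to the published GLIS consensus, which is marked in capitals.
DTD1 promoter, chr20:18568774-18568874: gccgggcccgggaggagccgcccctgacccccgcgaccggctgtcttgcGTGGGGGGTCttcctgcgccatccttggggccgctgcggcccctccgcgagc
MAD1L1 intron 14, chr7:2034078-2034178: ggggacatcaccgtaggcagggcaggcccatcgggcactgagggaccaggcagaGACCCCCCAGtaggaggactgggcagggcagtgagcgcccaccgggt
The region at DTD1 (D-aminoacyl-tRNA deacylase) had a fold enrichment of 7.76 at 48 h and 4.07 at 12 h, and its nearest AML1-ETO peak lay 3 bp from its edge. The region in MAD1L1, a spindle checkpoint gene, had a fold enrichment of 5.6 and no peak at 12 h. A full match was thus found at 2 of 652 summits (0.307%) and in 4 of 1304 flanking windows (0.307%).

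Fold enrichment, the ratio of ChIP signal to local background given by the peak caller, and −log10 q chose the regions or rank with them, and they are given as description. Fold enrichment ran from 1.13 to 26.6 with a median of 5.6, against a median of 8.62 (1.40 to 263) in the overlapping peaks. The median −log10 q was 6.10, against 14.3 in the overlapping peaks. Most of the regions were close to the threshold, as 413 of 652 had a −log10 q of 5 to 7, and 162 shared the same value of 5.16. Only 3 were among the strongest 10% of the ETO2-GLIS2 list. The members just inside the threshold lay in DHX9 (5.001), STK24 (5.010) and PHF1 (5.017), and the peaks just outside it, all at 4.985, lay nearest to GNA12, H3P5 and TERF1. Without the threshold, 4545 ETO2-GLIS2 peaks had no AML1-ETO peak, so the 652 were 14.3% of them. The regions were also narrow, with a median width of 289 bp (182 to 1593 bp). Overlapping peaks had a median of 673 bp, or 408 bp when their −log10 q was 5 to 10.

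The ETO2-GLIS2 list at 12 h was not used in the choice and shows which regions were seen in a separate library of the same line. A 12 h peak overlapped 181 of the 652 regions (27.8%, interval 24.4% to 31.4%), and 132 (20.2%) when the 12 h peak also had to have a −log10 q of at least 5. Over all 17503 peaks the share was 78.6%, and over the overlapping peaks it was 80.6% (80.0% to 81.2%). The gap was also seen among peaks of like strength. At a −log10 q of 5 to 7, 49 of 413 regions (11.9%) had a 12 h peak against 46.4% of overlapping peaks, and at 7 to 10 the shares were 33.6% and 67.0%. At 10 to 15 they were 63.0% (29 of 46) and 84.4%, with intervals that did not meet. At 15 to 20 the share was 90.0% (27 of 30) against 93.5%, and at 20 or more it was 94.3% (33 of 35) against 99.0%, and in both bands the intervals met. By 1 bp overlap, a lower share at 12 h than in overlapping peaks of like strength was thus seen below a −log10 q of 15. No difference was detectable above it at this number of regions. Overlapping peaks were also wider (medians of 408 bp against 278 bp at 5 to 10, and 943 bp against 404 bp at 10 or more), which favours overlap. With a 12 h summit required within 200 bp, the shares at 5 to 10 were 13.9% and 39.4%, with intervals apart. At 10 or more they were 76.6% (67.6% to 84.1%) and 83.3% (82.6% to 84.0%), intervals that met. Narrower bands were not compared by this rule.

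**Figure D1:**
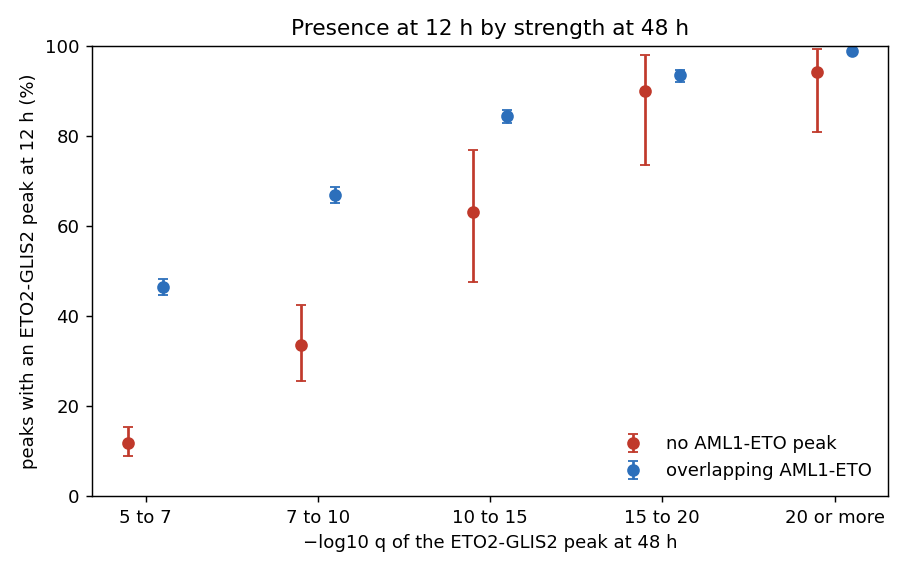
Share of ETO2-GLIS2 peaks at 48 h (vertical, percent) that had an ETO2-GLIS2 peak at 12 h, by −log10 q at 48 h (horizontal), for regions without an AML1-ETO peak (red) and overlapping peaks (blue). Bars are exact 95% intervals. The red points rise from 11.9% to 94.3% and stay below the blue ones, with intervals apart in the 3 weaker bands.

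Where both times had a peak, most summits lay close together, which the overlap that defines these regions favours. The distance to the 12 h summit had a median of 26 bp over the 181 regions and reached 920 bp, with 122 within 50 bp and 160 with a 12 h summit within 200 bp. Overlapping peaks had a median of 29 bp. Fold enrichment at 12 h was higher than at 48 h in 73 of 181 regions, with a range of 1.17 to 33.9 and a median of 5.86, against a median of 6.90 at 48 h in the same regions. The 48 h peaks had to pass the threshold and the 12 h peaks did not (−log10 q at 12 h from 1.40), which favours higher values at 48 h. The order of the regions was partly kept, with a Spearman's rho of 0.646 between the fold enrichments of both times (181 regions, which share the line and the antibody). The median width of the 181 was 368 bp, against 274 bp for the 471 regions without a 12 h peak.

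The region with the highest fold enrichment was the promoter of CETN4P, a centrin pseudogene (chr4:123653255-123654016), with 26.6 at 48 h and 33.9 at 12 h. The next was in intron 1 of SCD5, which encodes a fatty acid desaturase, with 21.1 at 48 h and 18.7 at 12 h. The promoter of CREBRF, a regulator of the stress factor CREB3, had 20.7 and 19.3, and its nearest AML1-ETO peak was 142 bp away. Fold enrichments of different lists move with depth, so these pairs of values are set side by side only.

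An exon of OR5AN1, an olfactory receptor gene, had 20.7 at 48 h and 23.7 at 12 h. The exon region of CSGALNACT1, an enzyme of chondroitin sulfate synthesis, had 19.7 at 48 h and 10.5 at 12 h. Intron 2 of BCL2, the apoptosis inhibitor, had 19.0 at 48 h (chr18:60808819-60809635) and 13.1 at 12 h. In intron 19 of the RNA helicase gene DDX31 the values were 19.0 at 48 h and 26.4 at 12 h. The CCL22 region, 9375 bp from the start of this chemokine gene, had 18.1 at 48 h and 23.7 at 12 h. Intron 1 of DOCK9, which encodes an activator of CDC42, had 18.1 and 24.1. The tenth, in intron 2 of the non-coding gene ENSG00000231557, had 17.7 at 48 h and 24.6 at 12 h.

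The nearest AML1-ETO peak was often close by. It lay within 1 kb of 325 of 652 regions (49.8%), 1 to 5 kb away from 161 and over 5 kb away from 166, and the median distance was 1026 bp. The share with a 12 h peak was 22.2% (17.8% to 27.1%) within 1 kb, 22.98% (16.7% to 30.3%) at 1 to 5 kb and 43.4% (35.7% to 51.3%) beyond 5 kb, the last interval lying above the others. The stronger regions also lay farther from AML1-ETO. Their median distance was 3376 bp at a −log10 q of 10 or more, against 895 bp at 5 to 10. Regions far from AML1-ETO were seen at 12 h more often, but distances were not compared at like strength. An example is the promoter of TMEM135, named after its values were seen. Its region had a fold enrichment of 16.8 at 48 h and 12.6 at 12 h, and the nearest AML1-ETO peak was 293359 bp away.

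Fewer of these regions were in promoters than of the overlapping peaks. Promoters are taken here as all bases within 1 kb of a start site of any annotated transcript. The summit lay in a promoter in 187 of 652 regions (28.7%, interval 25.2% to 32.3%), in another exon in 73 (11.2%), in an intron in 266 (40.8%) and between genes in 126 (19.3%). Of the overlapping peaks, 53.6% were in promoters, 4.29% in exons, 27.5% in introns and 14.6% between genes. The promoter share stayed apart at like strength: at a −log10 q of 5 to 10 it was 27.7% in the regions and 46.2% (45.0% to 47.5%) in overlapping peaks, and at 10 or more it was 33.3% and 57.8%. Regions with a 12 h peak were in promoters in 34.8% of cases (27.9% to 42.2%), those without in 26.3% (22.4% to 30.6%), intervals that met. In promoters and outside them alike, fewer of the weaker regions had a 12 h peak than of overlapping peaks. At a −log10 q of 5 to 10 the shares were 21.3% and 61.5% in promoters, and 15.3% and 51.2% elsewhere. The GC content of the 200 bp around the summit had a median of 57.0% in the regions and 63.0% in the overlapping peaks. By chromosome, the share of ETO2-GLIS2 peaks without AML1-ETO went from 5 of 196 on chromosome 18 to 20 of 372 on chromosome 13.

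Of 19222 protein-coding genes on chromosomes 1 to 22, 707 (3.68%) had such a region in the gene or up to 20 kb upstream, whereas 10164 (52.9%) had any ETO2-GLIS2 peak there. Among 36 megakaryocyte and platelet genes, 2 had a region (VWF and PLEK) and 12 had any peak. Of 34 genes of GLI, GLIS, Hedgehog and BMP signalling 1 had a region (GLIS3) and 17 had any peak. Among 40 myeloid regulators and monocyte genes 0 had a region, although 30 had a peak, so that every ETO2-GLIS2 peak past the threshold at these genes overlapped an AML1-ETO peak. Of all 17503 peaks past the threshold just 3.73% had no AML1-ETO peak, so a count of 0 in a list of this size is not read as a trait of these genes. The stem-cell list had 1 of 30 (MYC), with 22 having any peak, and the ETO family and its partners had 2 of 26 (CBFA2T3 and TCF3), with 20 having any peak. Over all lists 6 of 166 genes had a region, beside 3.68% of all protein-coding genes.

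VWF encodes the von Willebrand factor, to which platelets adhere, and had the strongest region of the lists. It lay 16387 bp upstream of the start site (chr12:6250166-6250587) with a fold enrichment of 13.3 at 48 h and 17.0 at 12 h. A second region in intron 12 of VWF had 6.90 at 48 h and no peak at 12 h. PLEK encodes pleckstrin, a major substrate of protein kinase C in platelets, and held 4 regions among 15 ETO2-GLIS2 peaks. Their fold enrichments went from 5.09 to 6.84, and the region with 5.17 also had a 12 h peak of 3.70. Their −log10 q was 5.16, 5.32, 5.99 and 9.08. GLIS3, which encodes a relative of GLIS2, had 5.80 in intron 2, and the region in an exon of MYC had 5.15. TCF3, which encodes the E protein E2A, had a region 13039 bp from its start with 6.90. None of the regions at these 3 genes had a 12 h peak.

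CBFA2T3 encodes ETO2 itself and held 3 of these regions. The strongest covered exon 4 of 12 (chr16:88958650-88958898), with a fold enrichment of 11.6, a −log10 q of 22.2 and no peak at 12 h. Its edges lay 2 bp before the start and 5 bp after the end of that exon. It was the exception among the 30 regions with the highest fold enrichment, of which the other 29 had a 12 h peak. Both edges lay within 10 bp of the edges of an annotated exon in 3 of 652 regions (CBFA2T3, ADM2 and DNAJB5-DT, the latter pair named after their values were seen) and in 10 of 16851 overlapping peaks. CBFA2T3 exon 4 belongs to the gene that the ETO2-GLIS2 construct was made from, and whether the construct's own DNA gave reads there was not tested. The other CBFA2T3 regions lay in intron 1 with 5.6 and 5.17, and neither had a 12 h peak.

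The other genes with several regions had weak ones. APBA2, KCNAB2, LSMEM2 and FBXL18 held 3 each. APBA2 encodes a neuronal adaptor protein and KCNAB2 a potassium channel subunit. In these 4 genes fold enrichment went from 5.17 to 6.90, and a 12 h peak was present at 1 region of APBA2 and 1 of KCNAB2. Among all protein-coding genes 39 had 2 or more regions.

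Repeated sequence touched a small group. The 32 bases at the summit occurred in more than 1 place of the genome in 58 of 652 regions (8.90%, interval 6.82% to 11.3%) and in 4.88% of overlapping peaks (6.42% at a −log10 q of 5 to 10). Of those 58 regions, 11 had a 12 h peak. The 5 regions with a fold enrichment under 2 stood apart. The region with the highest −log10 q of all, 175, was among them (chr1:121485077-121485367), with a fold enrichment of 1.35 at 48 h and 1.24 at 12 h. Its summit bases occurred in 2 places, and it lay 162870 bp from the nearest annotated start. The other 4 had a −log10 q of 13.1 to 43.98 and fold enrichments of 1.13 to 1.64. Of these, 3 had summit bases with further exact copies, up to 61 places. All 5 had 12 h peaks, with fold enrichments of 1.17 to 1.59, and count in the bands of a −log10 q of 10 or more above. The non-coding gene LINC00910 held the region with the highest −log10 q (24.4) among those without a 12 h peak, with a fold enrichment of 5.58, and was named after its values were seen.

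Sequence was not used in the choice and could be compared with the flanks, which are 200 bp windows centred 1 kb to either side of each summit. The Runt motif, TGTGGT or TGCGGT on either strand, is the site of the DNA-binding part that AML1-ETO alone carries. It was no more frequent at the summits than in the flanks, with 99 of 652 regions (15.2%, interval 12.5% to 18.2%) and 15.2% of flanks. Overlapping peaks had 24.0% (23.4% to 24.7%) at the summit and 16.4% in the flanks. Among peaks with a −log10 q of 5 to 10 the summit shares were 16.3% (13.3% to 19.7%) and 22.3% (21.3% to 23.4%). When summit windows were limited to a GC content of 40% to 60%, the regions had 16.2% (12.4% to 20.6%) at the summit and 12.9% in the flanks, and overlapping peaks had 34.96% (33.8% to 36.1%) and 17.6%. In each of these strata the summit share of the regions without AML1-ETO was below that of overlapping peaks, with intervals apart. The choice left out every peak that AML1-ETO touched, which favours a lower Runt share than in overlapping peaks, so this contrast is a description.

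The core of the GLIS consensus, TGGGGGG on either strand, was found at 54 of 652 summits (8.28%, interval 6.28% to 10.7%) and in 5.52% of flanks. At regions with a 12 h peak it was at 19 of 181 summits (10.5%, interval 6.44% to 15.9%) and in 3.59% of flanks, and at those without at 7.43% of summits and 6.26% of flanks. Overlapping peaks had 9.49% and 5.23%. At a −log10 q of 5 to 10 the summit shares were 8.50% (6.29% to 11.2%) in the regions and 6.85% (6.23% to 7.51%) in overlapping peaks, and at 10 or more they were 7.21% (3.16% to 13.7%) and 11.0% (10.4% to 11.6%), so the order turned with strength and the intervals met in both bands. Beside the regions with a 12 h peak, those over 1 kb from AML1-ETO had an excess over the flanks with intervals apart (10.1% and 5.05%). Summits were richer in GC than their flanks, with medians of 58.0% and 47.0% with a 12 h peak and 56.0% and 50.5% without. With summit windows limited to 40% to 60% GC, and flanks of any GC content, the excess of TGGGGGG was 1.05 points (-1.18 to 4.10). The GC content behind the excess at regions with a 12 h peak was not tested. The GLI consensus TGGGTGGTC was at 4 of 652 summits (0.614%, interval 0.167% to 1.56%) and in 0 of 1304 flanks (0% to 0.283%), intervals that met. It was at 0.226% of overlapping summits and in 0.220% of their flanks.

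The C-rich word was more frequent than the GLIS core at summits and in flanks alike. It leaves a base open and so matches more often anywhere, and the raw shares of these words are not like measures. CCCCNGC was chosen after words had been ranked on these regions, so its values are a description. It was at 227 of 652 summits (34.8%) and in 19.1% of flanks. With a 12 h peak it was at 82 of 181 summits (45.3%, interval 37.9% to 52.9%) and in 16.0% of flanks, and without one at 145 of 471 (30.8%) and in 20.3%. Of the 30 regions with the highest fold enrichment, 20 held it, against 8 of their 60 flanks. Overlapping peaks of a −log10 q of 10 or more had 55.3% and 21.4%, so the word was not particular to regions without AML1-ETO. It stood close to the summit. In the 50 bp on either side, 19.9% and 18.8% of regions with a 12 h peak held it, and 11.0% and 11.5% of those without. GC content moved with it. With summit windows limited to 40% to 60% GC, and flanks of any GC content, the shares were 19.8% at the summits and 14.8% in the flanks. For regions with a 12 h peak they were 30.1% and 12.4%.

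Single words were picked from the ranking in regions with a 12 h peak, so their higher excess there follows from the choice and is a description. CAGGGGG was at 31 of 181 summits with a 12 h peak (17.1%) and in 2.49% of flanks, against 9.55% and 4.35% without. Over all 652 regions it was at 11.66% and in 3.83%, and overlapping peaks had 11.75% and 4.37%. CAGGGGG was thus not particular to regions without AML1-ETO. CCCCGCG was at 23 of 181 (12.7%) and in 0.552% of flanks, against 1.27% and 1.38%. Ranked by summit share less flank share, CCCCAGC was first and CAGGGGG second among the 8192 words of 7 letters in regions with a 12 h peak, and each was first among the 42 words made of the same letters. In regions without a 12 h peak they ranked 99 and 29, and the first was CTGCCCC.

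A set of peaks outside the regions could be set beside these values. At 12 h, 586 ETO2-GLIS2 peaks with a −log10 q of at least 5 had no AML1-ETO peak, and 459 of them did not overlap any of the 652 regions. CCCCNGC was at 24.8% of their summits (21.0% to 29.1%) and in 15.03% of flanks, and CAGGGGG at 10.7% and in 4.03%. For both words the summit and flank intervals were apart. CCCCGCG was at 2 of the 459 summits (0.436%) and in 1.09% of flanks, so it was not in excess there. The Runt motif was at 16.1% and in 15.9% of flanks, and TGGGGGG at 5.01% and in 4.58%, neither of them in excess.

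Sites of ETS factors were counted as well. PU.1, the ETS factor that directs myeloid development, binds GAGGAAGT. This word was at 11 of 181 summits with a 12 h peak (6.08%, interval 3.07% to 10.6%) and in 1.10% of flanks, and at 8 of 471 summits without (1.699%, interval 0.736% to 3.32%) and in 0.955% of flanks, and these summit intervals met. The shorter GAGGAAG, chosen after seeing the data, was at 18.2% of summits with a 12 h peak and in 8.01% of flanks, against 6.58% and 5.94% without. It was at 8 of the 30 strongest regions and in 0 of their 60 flanks. In the 459 other peaks at 12 h it was at 13.5% of summits and in 6.21% of flanks. Overlapping peaks with a −log10 q of 10 or more also had more of GAGGAAG at the summit. In the 50 bp on either side 4.74% and 4.61% of them held it, against 2.07% and 1.97% in the steps 950 to 1000 bp away. The values beside the summit were 7.73% and 8.29% in regions with a 12 h peak, so the word was not particular to regions without AML1-ETO.

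The ETS core GGAA was at 89.0% of summits with a 12 h peak and in 83.1% of flanks, and at 83.2% and in 78.1% without.

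E-boxes, the sites of E proteins and their relatives, differed by word. CAGCTG was at 18.7% of summits (15.8% to 21.9%) and in 10.4% of flanks, and at 19.0% and in 10.7% for overlapping peaks. With and without a 12 h peak its summit shares were 17.7% and 19.1%. CACCTG was at 23.8% of summits (20.6% to 27.2%) and in 21.7% of flanks, whereas in overlapping peaks it was at 17.2% (16.7% to 17.8%), below the 21.6% of their flanks. At a −log10 q of 5 to 10 the summit shares of CACCTG were 25.1% (21.5% to 29.0%) and 19.5% (18.6% to 20.6%), again with intervals apart. Regions with a 12 h peak had CACCTG at 13.8% (9.14% to 19.7%) and those without at 27.6% (23.6% to 31.9%), so this E-box was the rarer in regions seen at both times. Those regions were also stronger, with a median −log10 q of 9.14 against 5.92. CACCTG was at 17.1% (10.6% to 25.4%) of regions with a −log10 q of 10 or more, and 12 h status was not compared at like strength. The general E-box CANNTG was at 69.3% of summits (65.6% to 72.8%) and at 60.9% (60.2% to 61.6%) of overlapping ones, and by 12 h status at 61.3% (53.8% to 68.5%) with a peak and 72.4% (68.1% to 76.4%) without.

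Further sites were mostly rare. The GC box GGGCGGG was at 7.82% of summits against 21.9% of overlapping ones, and at 2.69% against 3.86% for windows of 40% to 60% GC. The AP-1 site (TGACTCA or TGAGTCA) was at 3.53% of summits and in 3.37% of flanks, whereas overlapping peaks had 5.71% and 3.06%. C/EBP sites (TTGCNNAA) were at 8.59% and in 7.98%, and the GATA site AGATAA at 5.98% and in 8.82%, both with intervals that met. The ETS word CCGGAAGT was at 5 summits and the cyclic AMP response element TGACGTCA at 1.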

How the data were processed

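The deposited files are 4 MACS2 peak lists, 1 for each ChIP library (AML1-ETO and ETO2-GLIS2 at 12 h and 48 h). According to the submitters' processing notes, the authors used hg19 as genome, Bowtie2 2.2.9 as aligner, SAMtools 1.7 and, for peaks over input, MACS2 2.1.1.20160309. MACS2 settings, duplicate removal and artefact filters are not given in the sources used here. The deposited columns hold the authors' fold enrichment (a linear ratio at the summit), p-values and q-values as −log10, a score made from the −log10 q, and the summit as another column, a distance in bp. These values grow with sequencing depth, which the lists do not hold, so they were used to rank and filter within a list. Times came from the sample titles, since a protocol label gives 48 h for 12 h libraries too.

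Overlap was 1 bp. Genes came from GENCODE release 44 lifted to GRCh37, the assembly hg19 is built on. Motifs were matched on both strands in 200 bp windows, with flanks 1 kb away; short words can overlap longer ones. Copies of the 32 summit bases were counted by exact match. Python 3.11.15, scipy 1.17.1, pandas 2.3.3, pysam 0.24.0 and samtools 1.23.1 were used. Overlap (against bedtools 2.31.1) and motif counting were tested on simulated data. With 1 library per group no p-value was computed.

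The regions, gene lists and motifs were chosen with earlier results of these data known. Regions were named by rule: the 10 highest in fold enrichment (5 of those with a 12 h peak) or −log10 q, those at genes of 5 lists (at most 15), holders of the full GLIS consensus (at most 10), the 3 nearest on each side of the threshold, and genes with 3 or more regions. Sequence was shown for the 5 highest and the holders of the consensus, and for further regions chosen after their values were seen, leaving out UTR sequence and some loci. The alternatives tried were stricter thresholds, other overlap rules, other promoter definitions, 100 bp windows and GC-limited summit windows. Flanks were not limited by GC content.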

Additional observations from a re-analysis of the deposited data

How the results depend on the processing

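Of 36 alternatives, 16 changed the count of regions by less than 1.5 times or left a share within its interval, and 20 did not. No fit across samples exists, and no paired analysis was possible because every group is 1 library. The count of 652 became 111 at a −log10 q of at least 10 and 385 at 6 (chosen after seeing the data). It became 1053 when an AML1-ETO peak had to cover 50% of the region, 1235 when AML1-ETO peaks needed a −log10 q of at least 5, and 327 with no AML1-ETO peak within 1 kb. The share with a 12 h peak, 27.8%, became 80.2% at a −log10 q of 10, 40.5% at 6, 20.2% with 12 h peaks of at least 5 and 33.3% with no AML1-ETO peak within 1 kb. The promoter share, 28.7%, became 48.8% with 3 kb promoters, 22.6% with protein-coding genes only and 33.3% at a −log10 q of 10. The excess of TGGGGGG over the flanks, 2.76 points, became 6.91 in regions with a 12 h peak. The excess of the Runt motif, 0 points, became -3.15 at a −log10 q of 10, 3.29 with summit GC of 40% to 60% and -2.76 in regions with a 12 h peak. The excess of CCCCNGC, 15.7 points (added after seeing the data), became 38.7 at a −log10 q of 10 and 4.94 with summit GC of 40% to 60%. It was 29.3 with a 12 h peak and 10.5 without. These subsets hold fewer or other regions. The read depth behind the AML1-ETO lists, which decides how many weak peaks they hold, was not used here.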

Other observations

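The ETO2-GLIS2 regions without AML1-ETO that fell short of the threshold were seen at 12 h rarely. Of 3893 such peaks with a −log10 q under 5, 127 (3.26%, interval 2.73% to 3.87%) had an ETO2-GLIS2 peak at 12 h. The share for overlapping peaks under 5 was not computed, so weak signal and absence of AML1-ETO cannot be told apart here. GLIS2, the gene that gives the construct its zinc fingers, had no region past the threshold without AML1-ETO. Its exon 7 of 7 held a pair of ETO2-GLIS2 peaks at 48 h, both with a −log10 q of 4.25 and a fold enrichment of 4.74. Of the 586 peaks at 12 h with a −log10 q of at least 5 and without AML1-ETO, 408 had no ETO2-GLIS2 peak at 48 h at all. The same share over all 12 h peaks was not computed. For the 459 of the 586 that lay outside the regions, words of 6 letters were ranked by excess at the summits. The first of 2080 words was CAGCAG, at 32.5% of summits and in 17.6% of flanks. The next was the ETS-like ACTTCC at 24.4% and 11.0%.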
